A study of Mus musculus with 61 samples.

Results

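The midline sagittal fractions were 6 arrays: fractions 5, 6 and 7 of the sagittal series S and fractions 5, 6 and 7 of the slightly oblique sagittal series So. They were chosen by their number in the sample labels and set against the other 13 arrays of S and So, out of 19 sagittal arrays and 61 arrays in all. All animals were untreated male C57BL/6J mice aged 8 weeks, and each series came from the whole brain of 1 mouse, so that S and So are 2 animals. A fraction pooled 200 serial sections of 5 µm, that is 1 mm of brain from one side towards the other. The labels number the S fractions 2 to 10 and the So fractions 1 to 10. Total RNA of each fraction was hybridised to 1 one-colour Agilent whole mouse genome array. The 13 other arrays were divided by their number into 8 intermediate fractions (3, 4, 8 and 9 of both mice) and 5 outermost fractions (2 and 10 of both mice and 1 of So).

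The fractions of a brain are neighbouring slabs of 1 animal, not separate animals, so the p-values measure the spread between slabs of these 2 brains. A slab holds every tissue it crosses, and in such bulk RNA more cells of a type and more RNA per cell cannot be told apart. Values are log2 intensities of a probe minus the 75th percentile of its array, called levels here. They compare fractions for 1 gene and do not rank genes against each other, since probes differ in brightness. The gene lists used below were chosen with earlier results of these data known. Their counts and medians therefore describe the lists and are not a test of a cell type. Some genes are in more than 1 list.

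A slab on the midline of the mouse brain crosses the ventricles around which the septum, medial thalamus, habenula, hypothalamus, periaqueductal gray and pons lie. The midbrain and hindbrain raphe, the main source of serotonin, sits on the midline itself, while the noradrenaline neurons of the locus coeruleus and the dopamine neurons of the ventral midbrain lie a short way to each side. The lateral parts of the cortex, the hippocampus and the striatum lie farther out. Neurons that make these transmitters and peptides are few, but their enzymes, transporters and prohormones are made at high levels, which makes them readable in RNA of whole slabs.

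The first 250 bases before the annotated start are shown for a pair of genes that make and take up serotonin and for 1 gene that makes noradrenaline, because these genes stood highest in different midline slabs (values follow). The sequences are those of RefSeq on GRCm38.p6, written 5′ to 3′ on the strand of the gene. Tph2 (chr10:115185023-115185272, minus strand) encodes the brain tryptophan hydroxylase, the rate-limiting enzyme of serotonin synthesis. Slc6a4 (chr11:76998347-76998596, plus strand) encodes the serotonin transporter. Dbh (chr2:27165257-27165506, plus strand) encodes dopamine beta-hydroxylase, which turns dopamine into noradrenaline. In the Tph2 and Slc6a4 sequences, capitals mark GGAAG on either strand, the core bound by ETS factors such as Fev. In the Dbh sequence, capitals mark TAAT on either strand, a core bound by homeodomain factors such as Phox2a.
Tph2: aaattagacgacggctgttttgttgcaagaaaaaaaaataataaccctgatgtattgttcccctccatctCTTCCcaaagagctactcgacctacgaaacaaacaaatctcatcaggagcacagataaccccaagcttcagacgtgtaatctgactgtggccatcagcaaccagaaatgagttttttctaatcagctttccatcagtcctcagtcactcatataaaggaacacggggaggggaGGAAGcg
Slc6a4: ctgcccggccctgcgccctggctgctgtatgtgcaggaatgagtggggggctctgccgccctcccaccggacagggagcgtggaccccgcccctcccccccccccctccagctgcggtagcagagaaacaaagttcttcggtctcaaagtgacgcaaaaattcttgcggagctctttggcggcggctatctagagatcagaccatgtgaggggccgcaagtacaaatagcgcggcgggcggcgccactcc
Dbh: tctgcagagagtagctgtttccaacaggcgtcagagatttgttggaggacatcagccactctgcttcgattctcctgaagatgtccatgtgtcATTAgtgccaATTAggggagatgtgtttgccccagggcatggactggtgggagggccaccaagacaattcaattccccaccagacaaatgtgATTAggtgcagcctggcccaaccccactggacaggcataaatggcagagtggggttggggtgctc
Tph2 held 2 copies of GGAAG and Slc6a4 held 0, and Dbh held 3 copies of TAAT. Both cores are short and common: GGAAG was in 64.1% and TAAT in 54.9% of 32851 promoter windows of this length, and the longer ETS motif CCGGAAGT was in 2.88% of them and in none of these 3. These matches are a description of letters in the windows.

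The arrays were of similar depth. The intensity at the 75th percentile ran from 920 to 1434 units over the sagittal arrays and from 1023 to 1326 over the midline arrays, and 59.6% to 65.8% of probes were well above background in the midline arrays against 57.9% to 66.0% over all 19. A probe was tested when it was well above background on at least 3 of the 19 arrays, which left 27500 probes and 13100 named genes read by 1 probe each. The midline arrays shared their slides with intermediate fractions of the same brain, and fraction 7 also with the outermost fraction 10. They lay at the same 3 positions on the slide in both mice, and 0 spots were saturated. Fraction 2 of S and fractions 1 and 2 of So, all outermost, lay on a slide without midline arrays. That slide was scanned with So on day 2, while the rest of S was scanned on day 1. In So 59.0% of genes were higher in the end fraction 1 than in fraction 2, as were all 8 serotonin genes tested and 16 of 20 hypothalamic peptide genes, and in fraction 10 against fraction 9 these numbers were 57.0%, 8 and 15. At the ends of S they were 48.2%, 3 and 10 in fraction 2 against 3 and 55.9%, 4 and 14 in fraction 10 against 9. The Hcrt level, for one, was −0.27 in fraction 1 and 1.13 in fraction 10 of So. Many group counts are therefore also given without these 2 arrays of So.

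With limma and the mouse as a block, 6113 of 27500 probes (22.2%) differed between midline and other sagittal fractions at a Benjamini-Hochberg adjusted p under 0.05. Of these, 3150 (11.5%) were higher at the midline and 2963 (10.8%) lower. Large differences were mostly upward, with 439 probes (1.6%) higher by 2-fold or more and 99 (0.36%) lower by as much. Counted by genes, 1546 of 13100 (11.8%) were higher and 1599 (12.2%) lower. In both mice all 3 midline arrays lay above every other array of their brain for 727 probes (2.64%) and below for 815 (2.96%), that is for 375 (2.86%) and 470 (3.59%) of the genes. The split by direction depends on the scaling: after median scaling, which moved the median difference to −0.08, 31.3% of the calls were upward, against 51.5% here. With the slide as a fixed block 3887 probes were called. Without fraction 6 of So 3262 were, without fraction 7 of S 3435, without fraction 6 of S 3595, without fraction 5 of So 3974 and without fraction 7 of So 3990.

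**Figure D1:**
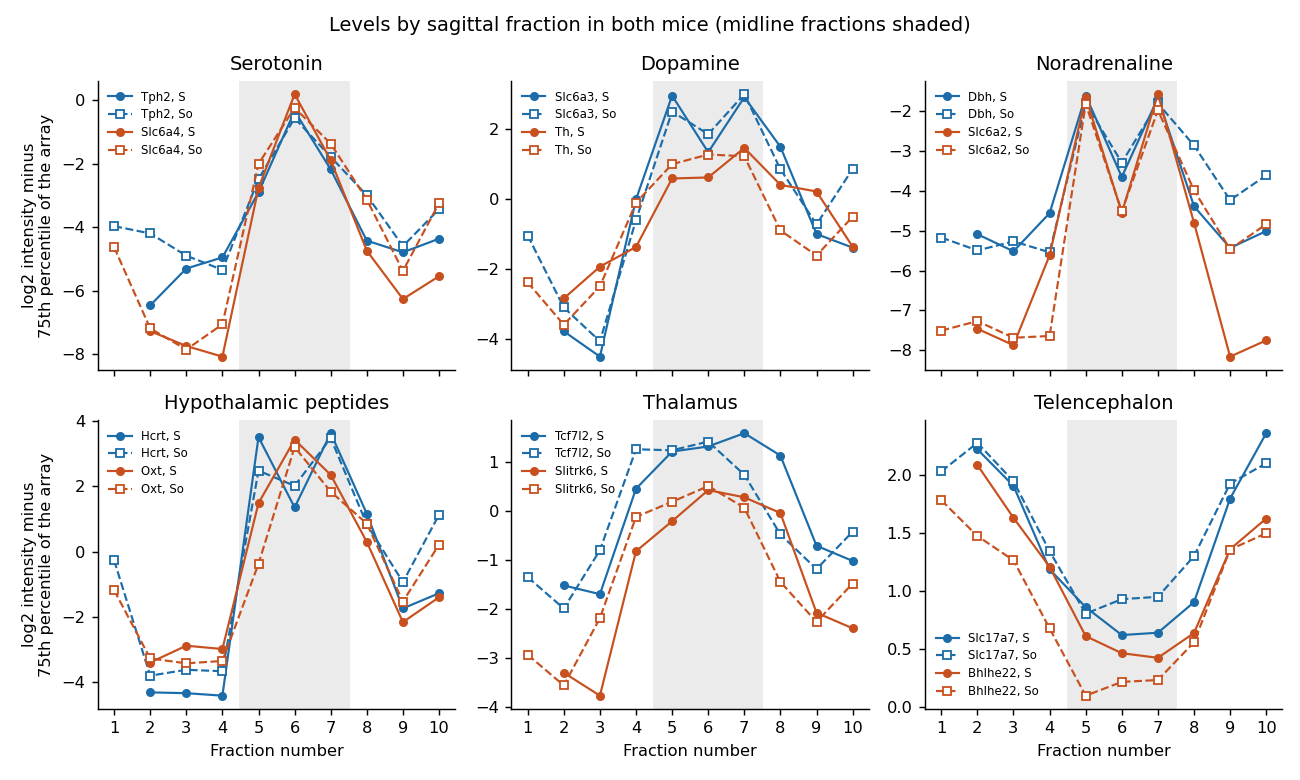
Levels (log2 intensity relative to the 75th percentile of the array) of selected genes against fraction number in S (9 arrays) and So (10 arrays), with the 3 midline fractions shaded, S as filled points with solid lines and So as open points with dashed lines. Tph2 and Slc6a4 peak at fraction 6 in both mice, while Dbh and Slc6a2 peak on either side of it.

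Serotonin genes were higher at the midline. Of the 8 tested genes of raphe serotonin neurons, 7 were higher and 0 lower, with a median difference of 2.35 on the log2 scale, beside −0.01 over all genes tested. Without fractions 1 and 10 of So, all 8 were higher. The Tph2 level was −2.90, −0.35 and −2.19 in fractions 5, 6 and 7 of S and −2.49, −0.57 and −1.79 in those of So. In the other 13 fractions it ran from −6.47 to −3.0 with a median of −4.60. All 6 midline slabs lay above all others, and fraction 6 was the highest of each brain. The difference of the means was 2.91 ± 0.42 (SE, 6 against 13 arrays), a 7.51-fold difference with an adjusted p of 0.000973. The Slc6a4 level was −2.77, 0.19 and −1.90 in the midline fractions of S and −2.01, −0.25 and −1.37 in those of So. The other fractions ran from −8.08 to −3.14, the highest being fraction 8 of So, and did not overlap with the midline. The mean difference was 4.70 ± 0.72, that is 25.9-fold (adjusted p = 0.0013). Of the 13 other arrays only 6 read Slc6a4 well above background, so this difference rests partly on values near the floor of the array.

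The other serotonin genes divided into shared monoamine genes and transcription factors. Slc18a2, the vesicular monoamine transporter, and Ddc, the aromatic amino acid decarboxylase, serve serotonin, dopamine and noradrenaline neurons alike, and differed by 3.58 ± 0.50 (adjusted p = 0.000873) and 1.79 ± 0.22 (adjusted p = 0.000466). For both, every midline slab lay above every other slab. Fev, the ETS factor of serotonin neurons, differed by 0.82 ± 0.22 (adjusted p = 0.0167). Its call was lost without fraction 6 of S (adjusted p = 0.0509), where its level was −3.56 against −4.78 and −4.47 in fractions 5 and 7. Gata3, a zinc-finger factor of serotonin and of other midbrain neurons, stood between −1.65 and −0.84 at the midline and between −7.82 and −1.39 elsewhere, a difference of 3.42 ± 0.86 (adjusted p = 0.0117). The ranges met only in So, where fraction 4 reached −1.39. Gchfr, the regulator of the enzyme that makes the hydroxylase cofactor, differed by 1.18 ± 0.33 (adjusted p = 0.0187), a call lost without fraction 6 of S (0.0564) or of So. Maob, a monoamine oxidase made in serotonin neurons and glia, differed by 0.25 ± 0.09 and did not pass (adjusted p = 0.0531).

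Genes of midbrain dopamine neurons were higher at the midline with 1 exception. Of 11 tested, 8 were higher and 1 lower, with a median difference of 2.35. Slc18a2 and Ddc are counted both in this list and in the serotonin list. Slc6a3, the dopamine transporter, had a level of 2.96, 1.35 and 2.92 in fractions 5, 6 and 7 of S and of 2.51, 1.86 and 3.01 in those of So. The other slabs ran from −4.49 to 1.5, and the difference was 3.74 ± 0.82 (13.4-fold, adjusted p = 0.00627). In both mice fraction 6 was the lowest of the 3 midline slabs, although it stood above all 7 other slabs of So and below fraction 8 of S at 1.5. Th, tyrosine hydroxylase, which makes the precursor of dopamine and noradrenaline, was between 0.60 and 1.47 at the midline and between −3.58 and 0.41 elsewhere (difference 2.44 ± 0.50, adjusted p = 0.00496). Foxa2, a forkhead factor of the ventral midline and of dopamine neurons, was between −2.91 and −1.61 at the midline and between −7.87 and −4.44 elsewhere, with a gap between the groups in both mice. It differed by 4.18 ± 0.53 (adjusted p = 0.000466), a difference that rests partly on values near the floor, since 5 of the 13 other arrays read it well above background. Chrna6, a nicotinic receptor subunit of catecholamine neurons, differed by 2.35 ± 0.28 and Pitx3, a homeodomain factor of dopamine neurons, by 0.85 ± 0.16 (adjusted p = 0.000434 and 0.00317). The exception was Nr4a2, a nuclear receptor of dopamine neurons that is also made in the claustrum and deep cortex. It was lower at the midline, between 0.38 and 1.46 against 0.89 to 3.24 (difference −1.19 ± 0.30, adjusted p = 0.0116), and stood highest in the outermost fraction 2 of S.

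The noradrenaline genes were few and moved together. All 4 tested genes were higher at the midline, with a median difference of 2.03. The Dbh level was −1.61, −3.65 and −1.67 in fractions 5, 6 and 7 of S and −1.81, −3.29 and −1.81 in those of So. Slc6a2, the noradrenaline transporter, read −1.64, −4.55 and −1.58 in S and −1.82, −4.52 and −1.98 in So. In both mice and for both genes fractions 5 and 7 stood near each other and fraction 6 was lower than both. Dbh differed from the other slabs by 2.49 ± 0.40 (5.61-fold, adjusted p = 0.00164) and Slc6a2 by 3.95 ± 0.69 (adjusted p = 0.00241). Slc6a2 was well above background in 5 of the 13 other arrays, so its difference too rests partly on values near the floor. The nearest other slab was fraction 8 of So, with a Dbh level of −2.86 and an Slc6a2 level of −3.99, both above fraction 6 of the same brain. Phox2a, a homeodomain factor of noradrenaline neurons, differed by 1.58 ± 0.33 (adjusted p = 0.00537), and Maoa, the oxidase that breaks noradrenaline down, by 0.24 ± 0.06 (adjusted p = 0.0169).

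Hypothalamic peptide genes held several of the largest differences of single genes, while their median was below those of the monoamine lists. Of 20 tested, 13 were higher at the midline and 2 lower, with a median of 1.41. Hcrt, the precursor of the orexins of the lateral hypothalamus, was 3.50, 1.35 and 3.62 in fractions 5, 6 and 7 of S and 2.48, 2.01 and 3.47 in those of So, against −4.40 to 1.16 in the others. Its difference of 4.70 ± 0.91 (26.0-fold, adjusted p = 0.00372) was the largest among named genes called. Pmch, the melanin-concentrating hormone precursor of the same region, was between 1.68 and 2.90 at the midline and between −5.76 and 1.38 elsewhere (4.40 ± 0.95, adjusted p = 0.00595). For both genes, whose neurons lie to the side of the ventricle, fraction 6 was the lowest midline slab in each brain. Avp, vasopressin, differed by 4.26 ± 0.98 (adjusted p = 0.00782), and fraction 8 of So at 2.19 stood above fractions 5 and 7 of that brain (1.03 and 1.88). Oxt, oxytocin, stood highest in fraction 6 of both brains, at 3.43 in S and 3.20 in So, and lowest in fraction 5, at 1.48 and −0.37. It differed by 3.85 ± 0.72 (adjusted p = 0.00328).

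The peptides of the mediobasal hypothalamus and of the preoptic area differed by less. Ghrh, growth hormone-releasing hormone of the arcuate nucleus, was between −3.11 and −0.89 at the midline and between −4.26 and −2.90 elsewhere (1.93 ± 0.26, adjusted p = 0.000649). Gnrh1, the gonadotropin-releasing hormone precursor of scattered preoptic neurons, was −4.04, −2.81 and −2.02 in S and −4.93, −2.01 and −3.30 in So (1.82 ± 0.39, adjusted p = 0.00586). Fraction 5 of So lay inside the range of the other slabs (−6.50 to −4.23). Agrp, the agouti-related peptide of the arcuate nucleus, had levels of −2.70, −1.72 and −4.81 in S and −5.31, −5.03 and −2.17 in So, so that 3 midline slabs stood out and 3 did not. Its difference of 1.51 ± 0.47 (adjusted p = 0.0298) was lost without fraction 5 or 6 of S or fraction 7 of So. Pomc, the precursor of melanocortins, was highest in fraction 6 of S (1.36) and fraction 7 of So (1.07), the call (0.72 ± 0.22, adjusted p = 0.0265) being lost without either. Gal, galanin, differed by 2.11 ± 0.31 and Hdc, the enzyme that makes histamine in the tuberomammillary nucleus, by 1.13 ± 0.21 (adjusted p = 0.00117 and 0.00324). The 2 peptide genes that were lower, Npy (−0.55 ± 0.17, adjusted p = 0.0268) and Sst (−0.50 ± 0.12, adjusted p = 0.00951), encode neuropeptide Y and somatostatin, which cortical and striatal interneurons make as well. The Npy call was lost without fraction 6 or 7 of S or fraction 5 or 6 of So.

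**Figure D2:**
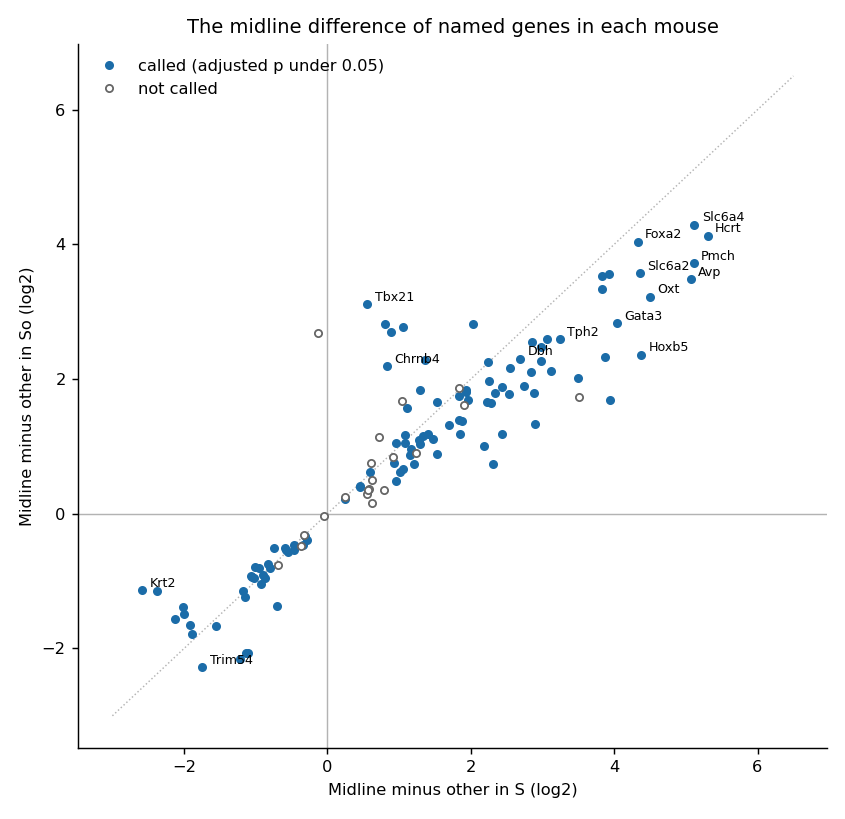
The midline minus other difference (log2) of each named gene in S alone against that in So alone, 1 point per gene, filled where called at an adjusted p under 0.05 and open where not. The genes with the largest differences lie near the diagonal, Hcrt at 5.31 in S and 4.13 in So and Slc6a4 at 5.12 and 4.29.

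Transcription factors of the hypothalamus were less uniform. Of 8 tested, 4 were higher and 0 lower (median 1.78), and 3 were higher without fractions 1 and 10 of So. Foxb1, of the mammillary region, differed by 2.69 ± 0.64, Nkx2-1, of the basal hypothalamus, by 1.87 ± 0.36 and Hmx3 by 1.79 ± 0.29 (adjusted p = 0.00964, 0.00376 and 0.00165). Nkx2-1 and Hmx3 were well above background in 4 and 2 of the 13 other arrays. Isl1, made in the arcuate nucleus and in striatal cholinergic neurons, differed by 1.76 ± 0.64 and did not pass (adjusted p = 0.0553). A further list of 11 genes is one that the study used for hypothalamic regions, taken from the marker candidates of another mouse brain expression resource. Of its 9 tested genes, 4 were higher, among them Foxb1, Ghrh and Hcrt, and 0 lower.

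Thalamic genes were higher at the midline but reached similar levels in a next slab of each brain. The mean level of the list was 0.44 in fraction 8 of S, against 0.32, 0.40 and 0.51 in fractions 5, 6 and 7. In So it was 0.27 in fraction 4, against 0.39, 0.52 and 0.38 in fractions 5, 6 and 7. Of 13 tested, 8 were higher and 0 lower (median 0.93). Tcf7l2, a factor of thalamic neurons, was between 0.75 and 1.59 at the midline and between −1.98 and 1.27 elsewhere (1.89 ± 0.42, adjusted p = 0.00692). The highest other level was 1.14 in fraction 8 of S and 1.27 in fraction 4 of So. Gbx2, a homeodomain factor of the medial thalamus, differed by 2.83 ± 0.71 (adjusted p = 0.0119) and was highest in fraction 6 of both brains. Slitrk6, a membrane protein of the thalamus, differed by 2.24 ± 0.50 (adjusted p = 0.00662). Prkcd, a protein kinase of thalamic relay neurons, was as high in fraction 4 of So (2.41) as at the midline (1.54 to 2.46), and its call (1.34 ± 0.46, adjusted p = 0.0437) was lost when any 1 of 14 arrays was left out. The vesicular glutamate transporters parted: Slc17a6, of the thalamus, hypothalamus and brainstem, was higher by 1.5 ± 0.27 (adjusted p = 0.00291), Slc17a8, of raphe and scattered neurons, was higher by 1.06 ± 0.21 (adjusted p = 0.00402), and Slc17a7, of the cortex, hippocampus and cerebellum, was lower by 0.98 ± 0.19 (adjusted p = 0.00362). Every midline slab lay below every other slab of its own brain for Slc17a7, which was 0.62 to 0.86 in S and 0.80 to 0.95 in So.

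The habenula and interpeduncular nucleus, small midline structures, were read by few genes. Of 10 tested, 3 were higher and 1, Nr4a2, lower (median 0.98), and 4 were higher without fractions 1 and 10 of So. Chrnb4, a nicotinic receptor subunit of the medial habenula, was well above background in 3 midline arrays and in 0 of the other 13. Its level at the midline was 2.70-fold higher, taken against the signal of each other array or its dimmest signal well above background, whichever was higher. Chrnb4 entered the test only through the midline slabs, so this fold is given as a description. Its level was −4.87 in fraction 6 of S and −4.33 in fraction 6 of So, and −7.82 in fraction 5 of S, which was as dim as the outer slabs. Chrnb3, another nicotinic subunit, differed by 1.2 ± 0.24 (adjusted p = 0.0044). Gpr151, a receptor of habenular neurons, was −7.14, −3.37 and −4.47 in S and −2.08, −4.37 and −6.04 in So, and its difference of 1.36 ± 0.53 did not pass (adjusted p = 0.069).

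In the midbrain and hindbrain, transcription factors were higher at the midline as a list. Of 18 tested midbrain and hindbrain factors, 13 were higher at the midline and 0 lower (median 1.07). Irx2, an Iroquois factor, was between −1.07 and −0.47 at the midline and between −7.05 and −1.49 elsewhere (2.72 ± 0.75, adjusted p = 0.0187), with no overlap in either mouse. Pax7, of the superior colliculus, differed by 2.15 ± 0.42, and Nkx6-1 by 1.29 ± 0.26 (adjusted p = 0.00431 and 0.0044). Pax7 in fraction 4 of So, at −4.03, stood above all 3 midline slabs of that brain. Of 9 tectum and periaqueductal genes, 4 were higher and 0 lower (median 0.97). Ucn, the urocortin precursor of the Edinger-Westphal nucleus, which lies on the midline of the midbrain, was −0.24 in fraction 6 of S and −0.80 in fraction 6 of So but between −4.72 and −2.62 in fractions 5 and 7. The other slabs ran from −4.42 to −1.91, and the difference over all 3 midline slabs, 1.06 ± 0.55, did not pass (adjusted p = 0.165).

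Genes of the caudal hindbrain spread wider than the midline in So. Of 16 Hox and hindbrain genes, 10 were higher and 0 lower (median 1.77), and 8 were higher without fractions 1 and 10 of So. Hoxb5, a positional gene of the medulla, was 0.68, 0.30 and 0.43 at the midline of S and −0.49, −0.27 and −0.24 in So. Fraction 8 of So, at 0.28, was higher than every midline slab of its brain, and the call (3.34 ± 1.16, adjusted p = 0.0474) was lost when any 1 of 14 arrays was left out. Hoxb6 showed the same pattern with 0.62 in fraction 8 of So and did not pass (2.60 ± 0.95, adjusted p = 0.0554). Of 7 glycine genes 3 were higher, and 2 without fractions 1 and 10 of So, beside 11.8% of all genes higher. Glra1, the glycine receptor subunit of the brainstem and spinal cord, differed by 2.62 ± 0.63 (adjusted p = 0.00999). Slc6a5, the neuronal glycine transporter, differed by 2.33 ± 0.73 (adjusted p = 0.0321), and its call was lost when any 1 of 7 arrays was left out, the 6 midline arrays or fraction 10 of S. Of 10 genes of septal and basal forebrain cholinergic neurons, Slc5a7, the choline transporter (2.15 ± 0.54, adjusted p = 0.012), and Slc18a3, the vesicular acetylcholine transporter (1.62 ± 0.40, adjusted p = 0.0114), were higher. Chat, which makes acetylcholine, did not pass (0.57 ± 0.30, adjusted p = 0.169). In this list 2 of 10 genes were higher, beside 11.8% of all genes.

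Of 13 olfactory bulb and neuroblast genes tested, 10 were higher at the midline and 0 lower (median 0.87), and 5 were higher without fractions 1 and 10 of So. Against the intermediate slabs 1 of 13 was higher. In S the mean level of the list was highest in fraction 8 (−0.73), with −2.08, −1.04 and −1.04 in fractions 5, 6 and 7. Eomes, a T-box factor of mitral and tufted cells, was −2.72, −1.81 and −1.45 in S and −1.71, −1.40 and −2.07 in So. Sp8, a zinc-finger factor of bulb interneurons, was −2.79, −0.92 and −0.77 in S and −0.87, −0.90 and −1.37 in So, while fraction 8 of S stood at −0.55. The differences were 1.82 ± 0.56 for Eomes (adjusted p = 0.0288) and 1.94 ± 0.54 for Sp8 (adjusted p = 0.0196). The Eomes call was lost without fraction 7 of S or any midline fraction of So, and the Sp8 call without fraction 5 or 6 of So. In S alone the Eomes difference was 0.89 and in So alone 2.70.

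**Figure D3:**
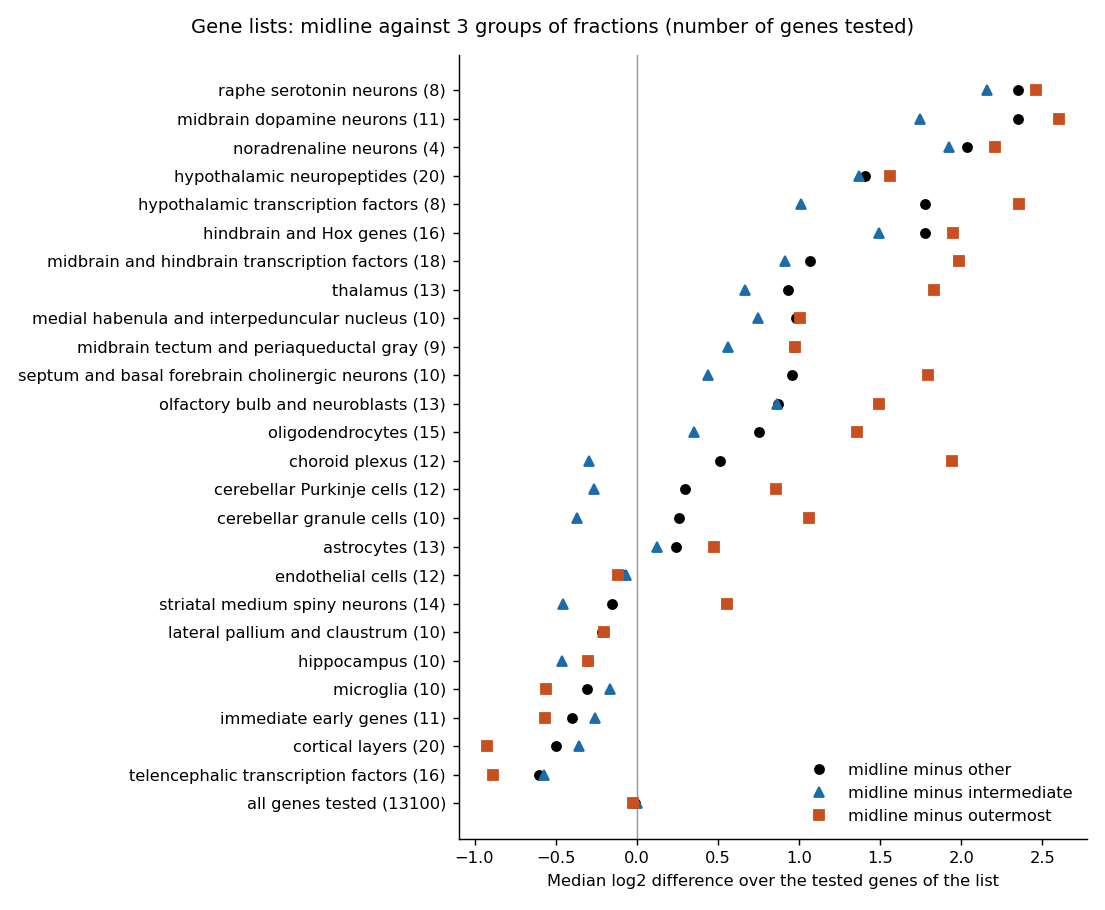
Median midline difference (log2) of each gene list against all other fractions (circles), the 8 intermediate fractions (triangles) and the 5 outermost fractions (squares), with the number of genes tested in brackets. Monoamine and hypothalamic lists lie to the right for all 3 comparisons, choroid plexus to the left against the intermediate (−0.30) and to the right against the outermost fractions (1.94), and telencephalic factors and cortical layers to the left.

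Some of the genes that mark the outer telencephalon were lower at the midline. Of 16 telencephalic transcription factors, 10 were lower and 3 higher (median −0.60), and without fractions 1 and 10 of So 11 were lower and 0 higher. The 3 higher ones were Dlx1, Dlx2 and Dlx5, which mark interneurons and olfactory bulb neuroblasts. Lhx2, a LIM factor of the cortex, was 1.78 to 2.02 at the midline and 2.10 to 3.65 elsewhere (−1.0 ± 0.21, adjusted p = 0.00592). Bhlhe22 (−0.99 ± 0.18), Tbr1 (−0.90 ± 0.20) and Emx2 (−0.90 ± 0.21), all factors of the developing or adult cortex, were lower with adjusted p-values of 0.00324, 0.00679 and 0.00908. For Lhx2 and Emx2 the midline slabs lay below every other slab of their own mouse in both brains. Of 20 cortical layer genes, 7 were lower and 2 higher, beside 12.2% and 11.8% of all genes. Of 10 hippocampal genes 4 were lower and 0 higher. Without fractions 1 and 10 of So, 9 cortical layer and 5 hippocampal genes were lower. Spink8, of hippocampal pyramidal cells, was lower by 1.16 ± 0.26 (adjusted p = 0.00669). Of 14 genes of striatal medium spiny neurons, 0 were higher or lower (2 lower without fractions 1 and 10 of So), and of 10 genes of the lateral pallium and claustrum 4 were lower.

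The 12 named genes with the largest downward differences belonged to none of the lists. Trim54, a muscle-type ubiquitin ligase, was −2.26, −3.28 and −3.16 in S and −3.49, −3.81 and −3.40 in So, against −2.79 to 0.70 elsewhere with the highest level in fraction 10 of So. The difference was −2.02 ± 0.41 (adjusted p = 0.00484). Dio3, the deiodinase that inactivates thyroid hormone, was between −2.75 and −1.42 at the midline and between −1.74 and 0.84 elsewhere (−1.84 ± 0.36, adjusted p = 0.00435). Krt2, a keratin, was lower by 1.84 ± 0.50, Ntn5, a netrin, by 1.69 ± 0.34, Slc23a3 by 1.61 ± 0.36 and Pkp1, a plakophilin of cell junctions, by 1.60 ± 0.33 (adjusted p = 0.0166, 0.00477, 0.00691 and 0.00493). Krt2 was well above background in 3 midline arrays and Pkp1 in 1. The other 6 were not well above background in any midline array. Their folds are taken against the signal of each midline array or its dimmest signal well above background, whichever was higher. Adamts13, the protease that cuts von Willebrand factor, was 3.62-fold lower, Alox12e, a lipoxygenase, 3.46-fold and Tmem171 3.31-fold. B4galnt2, a glycosyltransferase, was 2.96-fold lower, BC048679 2.81-fold and C4bp, a complement regulator, 2.74-fold. With the mouse as a block the folds were 3.58 for Adamts13 and 3.44 for Alox12e, so their values above are not lower bounds. These 6 entered the test only through the other slabs, so their folds are given as a description.

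Markers of other cells and of tissue next to the brain were read in the same slabs. Of 12 choroid plexus genes 0 passed against all other slabs (median 0.51), while all 12 were higher than in the outermost slabs (median 1.94) and 0 differed from the intermediate ones (median −0.30). Ttr, transthyretin, was between 0.69 and 1.82 at the midline, and its highest other level was 2.17 in fraction 3 of S (0.68 ± 0.79, adjusted p = 0.558). All 15 oligodendrocyte genes had positive differences (median 0.75), but only Aspa passed (0.84 ± 0.27, adjusted p = 0.0329), and that call was lost when any 1 of 7 arrays or fractions 1 and 10 of So were left out. All 15 were higher than in the outermost slabs (median 1.36). Their mean level was 2.45 to 2.81 at the midline and 0.67 to 2.79 elsewhere. Another probe of Mbp, not used for these counts, was called lower at the midline. Microglia genes had a median of −0.31. Of 10, 3 were lower, beside 12.2% of all genes, and 6 were lower without fractions 1 and 10 of So. Of 13 astrocyte genes 4 were higher and 1 lower. The higher ones included Agt, angiotensinogen (1.29 ± 0.37), and Slc6a11, a GABA transporter (1.51 ± 0.28), both made most by astrocytes outside the telencephalon (adjusted p = 0.0213 and 0.0031). The lower one was Slc1a2, the glutamate transporter most abundant in forebrain astrocytes (−0.41 ± 0.11, adjusted p = 0.0139).

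Of 10 ependymal and tanycyte genes 3 were higher and 1 lower. Foxj1, the factor of ciliated ependymal cells, stood between −0.43 and 0.31 at the midline and between −2.23 and −0.45 elsewhere (1.01 ± 0.26, adjusted p = 0.0135). Of 12 endothelial genes 0 passed and of 12 meningeal genes only Slc47a1 (lower). Haemoglobin did not part the groups, with differences of 0.03 for Hba-a1 and 0.01 for Hbb-bt. The pituitary hormones Gh and Tshb were well above background in 0 of the 19 arrays, Prl and Fshb in 1 and Cga in 2. The pineal enzyme Aanat and the pineal factor Crx were so in 0. Of 3 pituitary genes tested, Pitx1 and Pomc, which also mark brain neurons, were higher. The Pitx1 call (1.95 ± 0.66, adjusted p = 0.0435) was lost when any 1 of 13 arrays was left out. The part of glial and choroid plexus content in the neuronal differences was not tested.

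Against the nearest slabs the midline differed less than against the outermost ones. Between midline and intermediate fractions 1756 probes (6.39%) were called, 891 (3.24%) higher and 865 (3.15%) lower, and between midline and outermost fractions 12877 (46.8%), 6585 (23.9%) higher and 6292 (22.9%) lower. By genes, 479 (3.66%) were higher and 485 (3.7%) lower than in the intermediate slabs, and 3007 (23%) higher and 3494 (26.7%) lower than in the outermost ones. Higher than in the intermediate slabs were 8 of 11 dopamine genes, 10 of 20 hypothalamic peptide genes, 9 of 18 midbrain and hindbrain factors, 5 of 8 serotonin genes and 3 of 4 noradrenaline genes. Of 13 thalamic genes 2 were, of 16 Hox and hindbrain genes 2 and of 15 oligodendrocyte genes 0. Without fractions 1 and 10 of So these counts became 7 of 8 for serotonin, 4 of 4 for noradrenaline, 10 of 18 for the midbrain and hindbrain factors, 5 of 13 for thalamic and 3 of 16 for Hox and hindbrain genes, while 1 dopamine and 2 peptide genes were then lower. Calls rose over all 13100 genes as well, to 940 higher and 1012 lower, against 479 and 485 with all arrays. The Tph2 difference was 2.95 against the intermediate (adjusted p = 0.00364) and 2.84 against the outermost slabs (adjusted p = 0.000161). These outermost slabs include fractions 1 and 10 of So, where serotonin genes were higher than in the fraction next to them. Without these 2, the median over the 8 serotonin genes was 2.16 against the intermediate and 2.78 against the outermost slabs. Tcf7l2 differed by 1.51 (adjusted p = 0.0548) and 2.50 (adjusted p = 0.000928). The count against the intermediate slabs moved with single arrays: it was 163 without fraction 7 of S, 380 without fraction 6 of S, 432 without fraction 5 of So, 608 without fraction 6 of So, between 732 and 1084 without fraction 3, 5 or 9 of S or 3, 7 or 9 of So, and 3720 without fractions 1 and 10 of So.

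**Figure D4:**
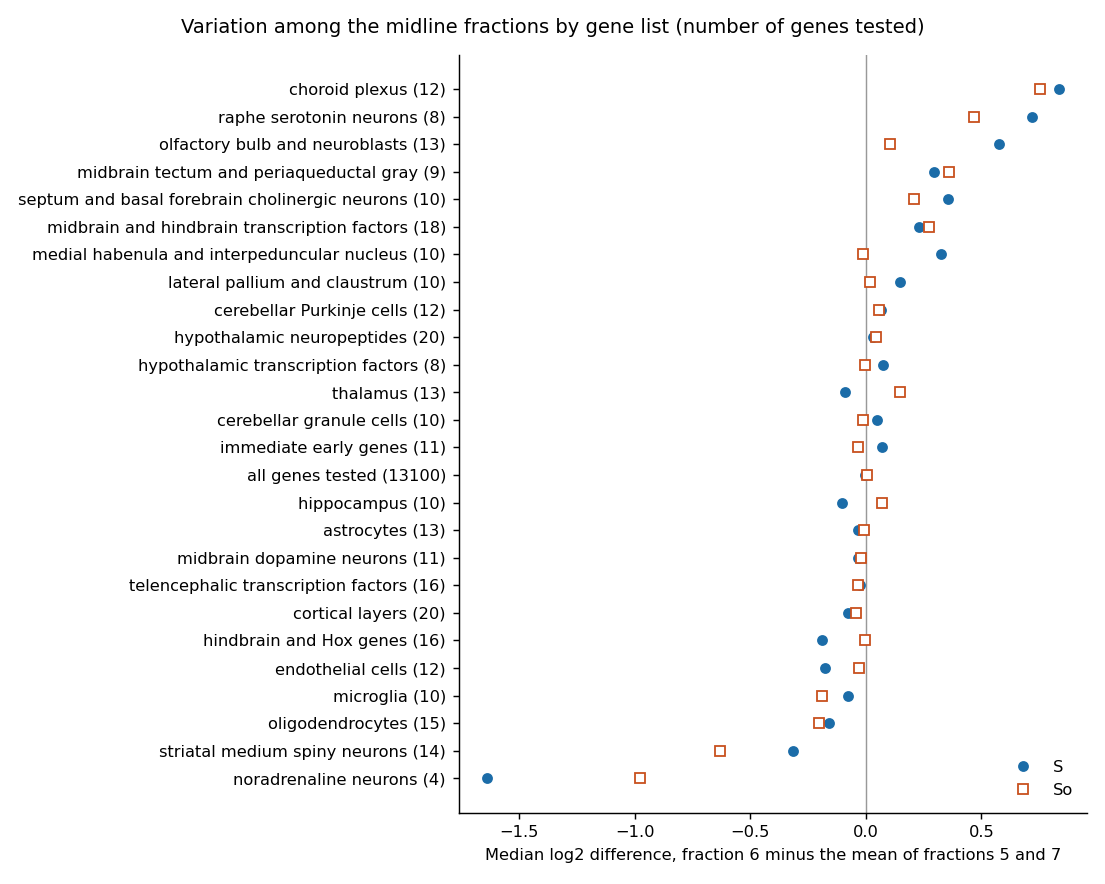
Median over each gene list of fraction 6 minus the mean of fractions 5 and 7 (log2) in S (filled circles) and So (open squares), with the number of genes tested in brackets. Choroid plexus and serotonin lists lie above 0 in both mice, and noradrenaline, medium spiny neuron and oligodendrocyte lists below 0 in both.

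Within the midline, fraction 6 held the highest levels of the serotonin genes. It was above both neighbours in both mice for 7 of 8 serotonin genes and below for 0, beside 13.7% and 13.2% of all 13100 genes. Over the 8 genes the median of fraction 6 minus the mean of its neighbours was 0.72 in S and 0.47 in So. All 4 noradrenaline genes were below both neighbours in both mice, with medians of −1.64 and −0.98. Of 12 choroid plexus genes 10 were above (0.84 and 0.75), of 18 midbrain and hindbrain factors 8, and of 10 habenular, 10 septal and 9 tectal genes 5 each. Of 15 oligodendrocyte genes 10 were below (−0.16 and −0.20). Taken in each mouse alone, 14 of 14 medium spiny neuron genes were below in So and 5 (35.7%) in S. The shares of all genes were 32.4% in So and 33.4% in S, so the count in S was near that of all genes. Choroid plexus and oligodendrocyte markers thus differed between these slabs along with the neuronal lists, and their part in them was not tested. By gene the contrast has little power. With 2 arrays of fraction 6 against 4, limma called 1 of 27500 probes (0.00364%), a probe of Fam13c (1.94, adjusted p = 0.0106), and 506 (1.84%) had an unadjusted p under 0.05. That probe was not the one with the highest intensity for its gene. Tph2 differed by 1.89, Dbh by −1.75 and Ucn by 3.06, all with the same direction in both mice, and none passed (adjusted p = 1, 1 and 0.473). Without fraction 5 of S 25 probes were called, and without fraction 7 of So 0. Fraction 7 against fraction 5 gave 0 calls with 334 (1.21%) at an unadjusted p under 0.05.

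**Figure D5:**
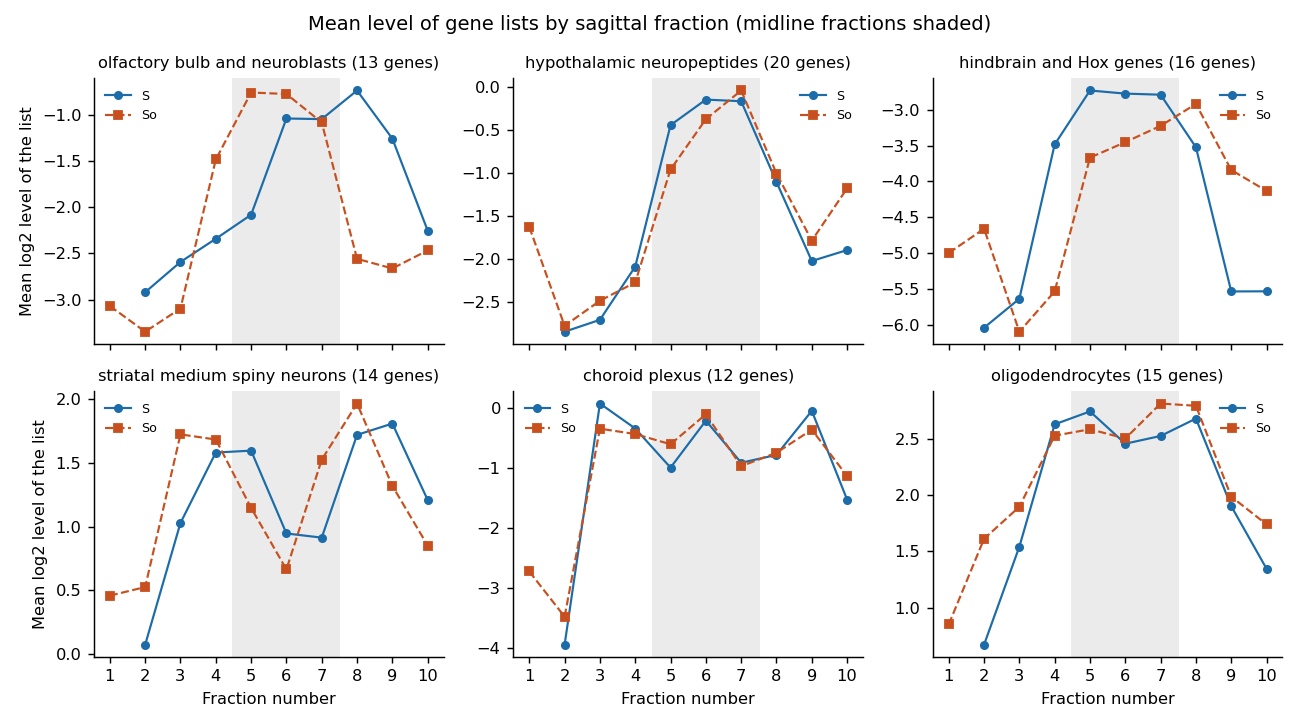
Mean level (log2) of 6 gene lists in each fraction of S (circles) and So (squares) against the fraction number, with the midline fractions shaded. Olfactory bulb genes are higher at fraction 8 than 4 in S and at 4 than 8 in So, and Hox and hindbrain genes in So run the other way.

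The 2 brains differed in which side of the midline held the bulb genes, and the hindbrain genes leaned to a side in So only. The level in fraction 8 minus that in fraction 4 compares slabs at an equal distance on each side of fraction 6. All 13 olfactory bulb genes were higher in fraction 8 of S (median 1.58), while in So 2 of 13 were (median −0.83). All 16 Hox and hindbrain genes were higher in fraction 8 of So (median 2.41), while in S 6 of 16 were (median −0.06). Hypothalamic peptides were higher in fraction 8 of both, 15 of 20 in S (0.45) and 17 of 20 in So (0.56). Over all 13100 genes, 6130 were higher in fraction 8 than 4 in S (median −0.01) and 7290 in So (0.02). Thalamic genes were higher in fraction 8 for 13 of 13 in S and 2 of 13 in So. In So the bulb and the hindbrain genes were thus higher on opposite sides of fraction 6. Between fractions 7 and 5 the same held for the bulb genes, with 12 of 13 higher in fraction 7 of S and 2 of 13 in So. Medium spiny neuron genes were higher in fraction 7 than 5 for 0 of 14 in S (median −0.60) and for 14 of 14 in So (0.36). Oligodendrocyte genes were so for 0 of 15 in S and 15 of 15 in So. Over all 13100 genes, 6098 were higher in fraction 7 than 5 in S and 6911 in So. With 1 brain for each angle of cut this difference in side was not tested. The difference of the midline contrast between the mice was tested as an interaction with limma, which called 0 of 27500 probes, with 433 (1.57%) at an unadjusted p under 0.05. Fitted alone, S gave 36 called probes and So 4.

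The highest sagittal fraction of a gene lay at the midline in both mice for 2051 of 13100 genes (15.7%), and in S alone for 32.5% and in So for 23.6%. It did for all 8 serotonin and all 4 noradrenaline genes, for 9 of 11 dopamine genes, 13 of 20 hypothalamic peptide genes, 3 of 16 Hox and hindbrain genes and 0 of 14 medium spiny neuron genes. The 244 genes that were higher at the midline by 2-fold or more were also followed in the coronal series C and Co and the horizontal series H and Ho, which come from 4 further mice and were not used to choose them. Hox and olfactory bulb genes place the caudal brain at low coronal numbers and the rostral end at high ones, and cortical genes place the dorsal side at low horizontal numbers. Of the 244 genes, 30.3% peaked in fractions 5 to 9 of C and 33.2% in fractions 6 to 11 of Co, against 13.5% and 17.1% of all genes. The caudal fractions 1 to 4 of C held 45.1% of their peaks and fractions 1 to 5 of Co 43.9%, against 37.0% and 42.4% of all genes, and the rostral fractions 10 to 13 of C and 12 to 16 of Co held 24.6% and 23.0%, against 49.5% and 40.5%. In the horizontal series 6.15% peaked in fractions 1 and 2 of H and 0.82% in fractions 1 and 2 of Ho, against 40.8% and 46.0% of all genes. The ventral fractions 5 and 6 of H held 53.7% of their peaks and fractions 6 and 7 of Ho 63.1%, against 42.1% and 29.2% of all genes. Tph2 and Slc6a4 peaked together in every series, in fraction 5 of C, 6 of Co, 3 of H and 4 of Ho, while Dbh peaked 1 fraction more caudal in C and Co and 1 fraction more ventral in H and Ho.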

How the data were processed

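RNA of 61 fractions of 6 brains was hybridised to 61 one-colour (Cy3) Agilent whole mouse genome arrays, of which the 19 arrays of S and So were used for the tests and the 42 of the other series for peak positions only. The deposited spot intensities are those of Agilent Feature Extraction 9.1.3.1, which subtracted the background but did not scale arrays to each other, per the file headers. They also deposited a table of 36558 probes with intensities normalised per array in GeneSpring GX, of which 0 columns were unused and which served as an alternative. Here, intensities of 43379 spots were averaged as log2 values over the spots of 41174 probes, leaving out spots that the software marked as outliers, and the 75th percentile of each array was subtracted.

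Probes were named through their RefSeq accessions (22951 matched, 18223 did not), and a gene was read by the probe with the highest mean over the 19 arrays. A probe was tested when it was well above background on at least 3 arrays and had a value on all 19, which left out 131 probes for a marked spot. The tests were limma 3.58.1 (lmFit and eBayes, R 4.3.3) with the mouse as a block, a model of 5 classes of fraction (fractions 5, 6 and 7, intermediate, outermost) and a model with the interaction of mouse and midline, with 16, 13 and 15 residual degrees of freedom. P-values were adjusted over all 27500 probes by the method of Benjamini and Hochberg. Some probes were not well above background on any array of a group. Their fold uses the signal of each such array or its dimmest signal well above background, whichever was higher. Array number limits the precision: repeat spots of 1 probe within an array varied little (median SD 0.07, log2).

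Genes named are the 12 with the largest difference in each direction with the same sign in both mice, members of the marker lists, and called genes of the other contrasts. A probe of Fam13c is named as the only call of its contrast. The list of hypothalamic region genes is the study's, which drew it from the marker candidates of the BrainStars database. The members and the lists were chosen with earlier results of these data known. The fit was tested on simulated data for midline against other fractions over 27500 probes with 200 changed. It recovered 88% of those changed by 1 log2 unit and 97% of those changed by 2, with 23 false calls. The simulated noise was independent between arrays, while the arrays here are neighbouring slabs of 2 brains with 22.2% of probes called. The simulation therefore cannot show how the fit behaves on such slabs. Alternatives were other scalings, filters, blocks, probes and sets of arrays, and leaving out each array. Leaving out fractions 1 and 10 or 4 and 8 of So was added after seeing the data. Tables were handled with Python 3.11.15, numpy 2.4.6 and pandas 2.3.3, and figures drawn with matplotlib 3.10.9. A few genes of the lists are counted but not reported by name here.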

Additional observations from a re-analysis of the deposited data

Results flagged for a closer look

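In 16 of 387 groups of arrays, a single array stood far from the rest of its group (its gap to the nearest value was large against the whole range). Chance alone marks about 1 group in 20, so these are values to look at. Most of those among the other arrays of S fell on a single array. Among them 6 lay in the midline arrays.

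In the midline, Gata3 was −1.65 in fraction 7 of So with −1.05 as the next value, Lhx9, a LIM factor of the thalamus and midbrain, was −2.05 in the same array (next −1.22), and Isl1 was −1.46 there (next −1.94). Lhx2 was 2.02 in fraction 5 of So (next 1.85). Sp8 was −2.79 in fraction 5 of S (next −1.37), and Slc18a3 was −3.21 in fraction 6 of S (next −3.65).

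Among the other arrays of S, 7 values stood apart, all but that of C4bp in the outermost fraction 2. In that fraction were Ttr at −4.28 (next 0.48), Drd2, a dopamine receptor of the striatum, at −3.56 (next −0.36), and Ppp1r1b, a phosphatase inhibitor of the striatum, at −0.22 (next 1.08). It also held Cx3cr1, a microglial receptor, at 1.15 (next 0.57), Chat at −6.93 (next −5.89) and B4galnt2 at −4.04 (next −5.67). This array lay on another slide and was scanned on another day than the rest of S, and the cause was not tested. In fraction 8 of S, C4bp was −7.46 (next −5.80). In So, Pax7 was −4.03 in fraction 4 (next −6.28), Slc18a3 −3.05 in fraction 8 (next −4.99) and Spink8 −1.64 in fraction 1 (next −0.61).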

How the results depend on the processing

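Of 129 genes examined, 109 were called, and none of the 129 changed direction when an array was left out, but 30 of the 109 lost the call in at least 1 of these 19 fits. Fraction 6 of S and fraction 6 of So each ended the call of 23 genes. Of the 109, 94 lost it with all 61 arrays in the fit, 26 with the fraction number as a random replicate block and 19 with a fixed slide effect. The 6113 calls at the midline ranged from 3262 (without fraction 6 of So) to 7587 (without fraction 8 of S), the 1756 against intermediate slabs from 163 to 2605, those of fraction 6 against 5 and 7 from 0 to 25, those of fraction 7 against 5 from 0 to 30, and those of the interaction stayed at 0. At the midline 3887 probes were called with the slide as a fixed block, 10675 with the array position, 372 with all 61 arrays in the fit, 1713 at an adjusted p under 0.01, and 36 in S alone and 4 in So alone. Median scaling gave 6432 calls, 31.3% of them upward, and the normalised values of the authors gave 6440 calls, 31.1% upward, against 51.5% here. Against intermediate slabs there were 1115 calls with all probes, 183 at 0.01 and 3720 without fractions 1 and 10 of So. Against outermost slabs there were 6079 with the slide fixed. For fraction 6 against 5 and 7, the 1 call became 11 with normexp and quantile normalisation, 8 with all probes, 3 with the slide fixed, 2 with it random, and 0 with probes detected on all arrays, at 0.01, or without fractions 1 and 10 of So. With all probes fraction 7 against 5 gave 5 calls and the interaction 1.

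Fractions of the same number in S and So share a number, not an animal, and their deviations correlated by −0.01, 0.09 and −0.06 in fractions 5, 6 and 7. With the fraction number as a random replicate block 3231 probes were called, and with no replicate block for the mouse 4363.

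Directions turned for 4 genes, none of them called: Ucn3 (−0.14 in S alone), Ttr (−0.41 with the slide fixed, −0.46 without the outermost fractions), Drd2 (−0.10 and −0.31 in the same 2 settings) and Mbp, whose other probe was lower by 0.50 and called (adjusted p = 0.00748). With 2 brains the data limit what can be said of other mice, and probes near background give differences that depend on the floor. The cause of these changes was not tested.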
